A study of Mus musculus with 26 samples.

Results

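The RNA response of NIH3T3 cells to severe heat, 44 °C for 2 h, was described across all genes, with the chaperones set aside. NIH3T3 is an established line of mouse embryonic fibroblasts. The members were the 2 RNA libraries labelled as heat stress at 44 °C for 2 h and the 2 libraries labelled as their heat control, 4 of the 26 libraries of the series. No temperature is printed for the control because the labels give none. The RNA was polyA-selected, and 12747 of the 20430 gene symbols of the expected-count table passed the filter on low counts. For comparison, 2 libraries of cells held at 42 °C for 8 h share the heat control, and cells under KCl or H2O2 for 2 h, with 2 libraries each, have a separate control of 2 libraries. No genotype or other treatment is named in the labels, and nothing in them says that replicates came from separate cultures, so that p-values measure the spread between libraries, which may be technical.

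Heat unfolds proteins, and cells answer through heat shock factor 1, which binds inverted repeats of nGAAn (heat shock elements) in front of chaperone genes. Severe heat is also known to slow splicing, to halt transcription at many genes, to disturb the actin cytoskeleton and to let transcription run past the ends of genes. In fibroblasts the cytoskeleton is coupled to transcription. Free G-actin holds the coactivator MRTF in the cytoplasm, and MRTF acts with serum response factor (SRF) at CArG boxes in front of actin and actin-binding genes.

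The 4 libraries held 32805080 to 42698179 expected counts. Replicates correlated with r = 0.998 in each group (Pearson's r of log2 CPM over genes, a description), and a chi-square of 5.56 per gene in the control and 6.59 at 44 °C put both pairs above counting noise. The fibroblast label was borne out by its markers: 10 fibroblast genes, among them Col1a1 and Vim, summed to 12540 and 12740 TPM (a level per transcript length, scaled to the same total in each library) in the control and to 9380 and 9111 TPM at 44 °C. All 10 were called lower at 44 °C. Epithelial, endothelial, neural, muscle and hepatocyte markers summed to at most 2.4 TPM each in any of the 4 libraries, with Krt5, Krt14, Snap25, Rbfox3, Myod1, Myog and Alb at 0. Blood and immune markers summed to 9.21 to 10.32 TPM, nearly all of it Cd68, with Adgre1 and Cd3e at 0. In bulk RNA, fewer cells of a kind and less RNA per cell cannot be told apart, and all values are relative to the total of their library.

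A gene is said to be called, to have risen or to have fallen where its adjusted p (edgeR quasi-likelihood F test, Benjamini-Hochberg) was under 0.05. By that rule 9055 genes (71.0% of those tested) differed between 44 °C and control. Of all tested genes 35.4% were higher and 35.7% lower, and the median log2 fold change was -0.000341. Counts of genes higher or lower in each list below are to be read beside these shares. Most called changes were small: 5761 of them (63.6%) were under 1.5-fold. At least 2-fold rises were called for 776 genes (6.09%), of which 14 belong to the chaperone list, and at least 2-fold falls for 622 genes (4.88%), of which 1 does. Rises of at least 4-fold numbered 251 and falls 88.

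**Figure D1:**
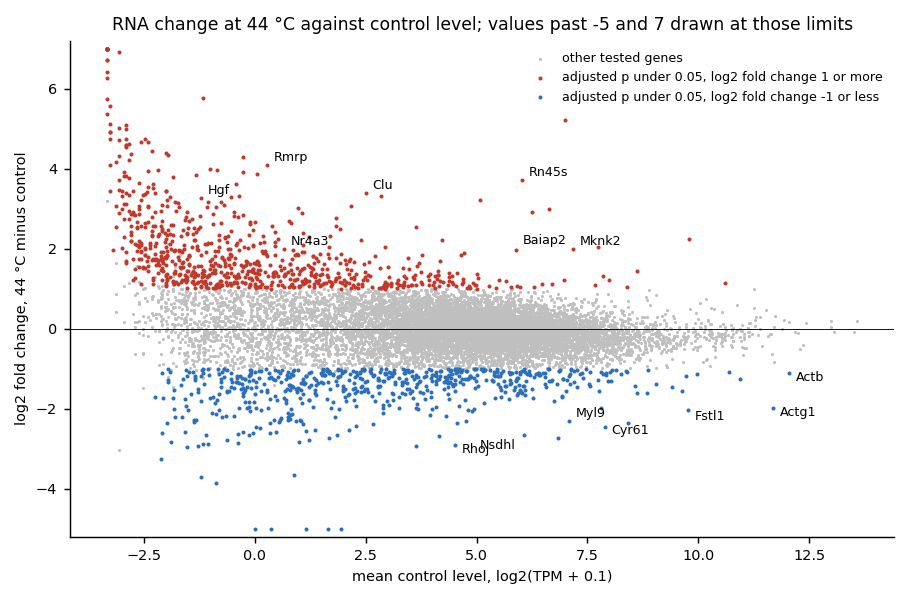
Log2 fold change at 44 °C against control (vertical) by mean control level as log2(TPM + 0.1) (horizontal), 1 point per tested gene, with red and blue marking calls of at least 2-fold. Large rises gather at low control levels on the left, and among the most abundant genes on the right Actb, Actg1 and Fstl1 stand below the line. Values past the limits of the vertical axis are drawn at those limits.

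The rises and the falls came from different ranges of expression. Of the 776 genes that rose at least 2-fold, 366 (47.2%) had a mean control level under 0.5 TPM, against 63 (10.1%) of the 622 that fell. In the class under 0.5 TPM, 42.5% of 861 genes rose at least 2-fold and 7.32% fell. Genes tested in that class had to reach the count filter in some heat group, so rises are favoured there by the filter. At 50 to 200 TPM the shares were 0.447% and 2.68% of 3134 genes, and at 200 TPM or more 0.963% and 3.73% of 831 genes. Among those most abundant genes 504 fell and 136 rose, with a median log2 fold change of -0.19.

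Large falls were also more frequent among long genes. Genomic span was taken from RefSeq (GRCm38.p6) for 99.9% of tested genes. Tested genes were ordered by span into 5 classes of like size. In the longest class, spanning 69.1 kb or more, 10.1% of genes fell at least 2-fold and 2.91% rose. In the shortest class, up to 8.02 kb, 4.28% fell and 10.2% rose. Restricted to genes with a control level of at least 10 TPM, the longest class still had 5.84% falling at least 2-fold, against 1.57% to 3.56% in the other classes, and a median of -0.17. The median span was 43.0 kb for genes that fell at least 2-fold, 14.1 kb for genes that rose at least 2-fold and 23.7 kb for all tested genes. These are descriptions without a test of the difference, since genes are not replicates.

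**Figure D2:**
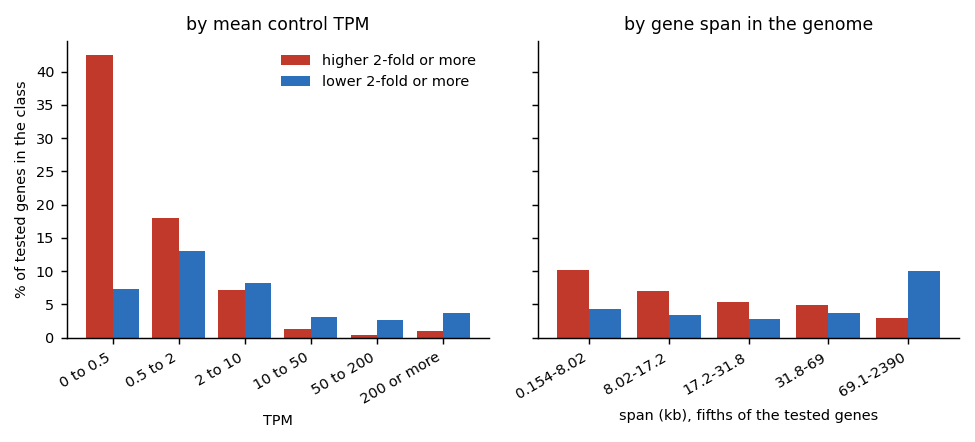
Share of tested genes (%) called at least 2-fold higher (red) or lower (blue) at 44 °C, by mean control TPM (left) and by 5 classes of genomic span in kb (right). The red bar reaches 42.5% in the lowest TPM class, and the blue bar exceeds the red one only at 2 TPM and above on the left and in the longest class on the right.

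The largest rises outside the chaperones, among genes with a mean log2 CPM of at least 3, were between 1.76 and 4.09 on the log2 scale for 25 genes. That mean is over the 6 heat libraries, and Rmrp, Rpph1 and Rn7sk reached it only through their levels at 42 °C for 8 h. Several encode secreted or receptor proteins. Clu encodes clusterin, an extracellular chaperone that binds unfolded proteins (chromosome 14, 65968483 to 65981548). It was at 4.0 and 4.42 CPM in the control and at 42.1 and 45.9 CPM at 44 °C. That is a log2 fold change of 3.39 (SE 0.0886, adjusted p = 1.36e-12). Libraries of the groups were far apart, and at 42 °C for 8 h Clu stood at 5.61 and 6.59 CPM.

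A trio of tumour necrosis factor receptors rose together. Tnfrsf22 and Tnfrsf23, neighbours on chromosome 7 that encode decoy receptors for TRAIL, went from 5.88 and 7.24 CPM to 41.7 and 47.0 CPM, and from 17.8 and 18.1 CPM to 102.3 and 106.8 CPM. Their log2 fold changes were 2.77 (SE 0.0937) and 2.54 (SE 0.0538). Tnfrsf25, the death receptor DR3 on chromosome 4, went from 3.24 and 3.20 CPM to 17.7 and 20.9 CPM. No value at 44 °C came near a control value in any of these, and adjusted p was at most 9.53e-11. Tnfrsf22 and Tnfrsf23 are closely related in sequence, and how reads were shared out among them is uncertain.

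Of the large rises, Mknk2, Baiap2 and Klhl21 are given here with their libraries. Mknk2 encodes MNK2, the kinase that phosphorylates the cap-binding protein eIF4E (chromosome 10, 80665318 to 80676293). Its level was 213.1 and 222.7 CPM in the control and 839.5 and 887.9 CPM at 44 °C, a log2 fold change of 1.99 (SE 0.0470, adjusted p = 6.62e-13). Baiap2, which encodes the membrane-bending adaptor IRSp53, went from 70.0 and 70.8 CPM to 253.2 and 292.4 CPM. Klhl21, an adaptor of a CUL3 ubiquitin ligase, went from 42.5 and 45.2 CPM to 148.1 and 164.4 CPM. At 42 °C for 8 h the 3 genes were much closer to the control, at 223.4 and 239.0, 92.0 and 85.6, and 54.6 and 55.0 CPM.

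The remaining large rises were of mixed function. Efnb3 (ephrin B3, a guidance ligand), Fst (follistatin, which binds activin), Nr4a3 (an orphan nuclear receptor), Cebpd (a C/EBP transcription factor), Slc5a3 (the myo-inositol transporter), Cfp (properdin of the complement pathway), Kifc2 (a kinesin), Ttll3 (a tubulin glycylase) and Rbm47 (an RNA-binding protein) rose by log2 values of 1.76 to 2.88. Cep295nl rose by 3.31, from 5.54 and 6.84 CPM to 57.0 and 64.7 CPM. Snhg20, a host of small nucleolar RNA, rose by 2.20, and the cilium gene Spef1 and the collagen gene Col20a1 by 2.50 and 1.83. For Zfp967 the control libraries themselves lay far apart, at 0.23 and 11.2 CPM, and its call (adjusted p = 0.00209) was lost with DESeq2 (adjusted p = 0.239).

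**Figure D3:**
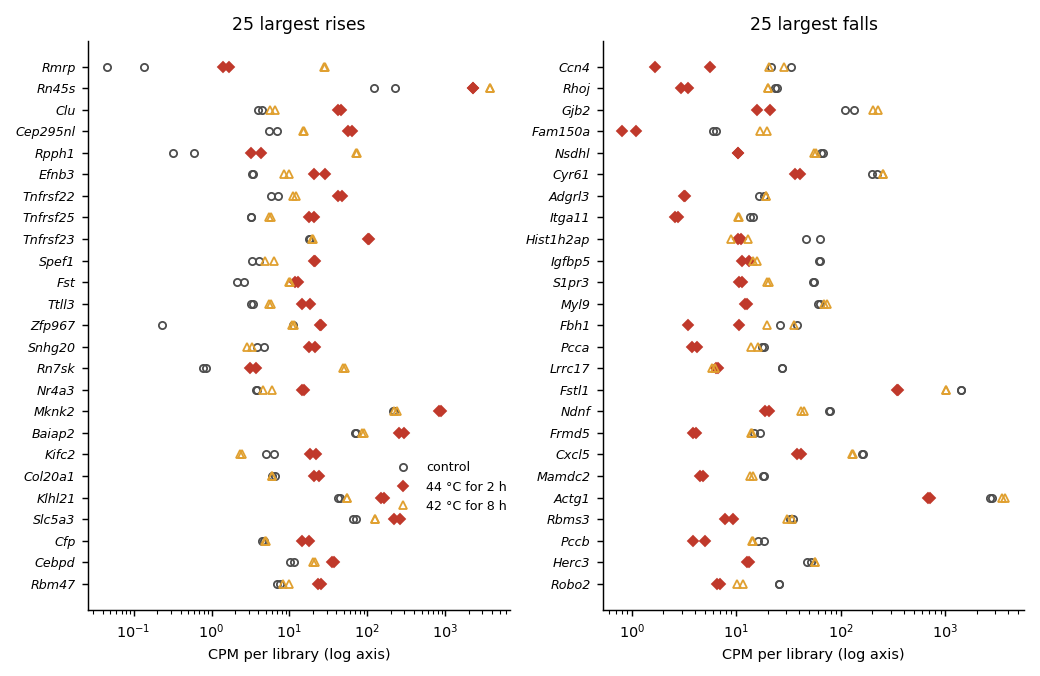
CPM of each library (log axis) for the 25 largest rises (left) and the 25 largest falls (right) at 44 °C outside the chaperone list. Filled red diamonds (44 °C) lie clear of the open grey circles (control) in each row, while the open triangles (42 °C for 8 h) vary: Rmrp, Rn45s, Rpph1 and Rn7sk lie beyond 44 °C, Hist1h2ap, Igfbp5 and Lrrc17 near it, and Mknk2 and Tnfrsf23 at the control.

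Secreted growth factors were called in both directions. Of 25 tested genes of that list 11 rose and 7 fell, with a median of 0.21. Among all tested genes 35.4% rose and 35.7% fell. With DESeq2, and without 44 °C replicate 2, 4 fell. Hgf, hepatocyte growth factor, went from 0.459 and 0.353 CPM to 3.95 and 4.06 CPM, a log2 fold change of 3.28 (SE 0.224, adjusted p = 1.23e-08). Areg (amphiregulin, an EGF receptor ligand) rose by 2.64, Angptl4 by 1.39 and Vegfa by 0.91. Bmp2 went from 48.7 and 47.4 CPM to 20.7 and 19.9 CPM, and fell by 1.24. Hbegf, another EGF receptor ligand, fell by 0.60.

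Some genes had at most 3 counts over both control libraries and were higher at 44 °C. Those with the highest levels at 44 °C are given. That choice favours large ratios, and the floors and intervals do not allow for it. Cpn1, a subunit of carboxypeptidase N, had 0 counts in the control libraries and 94 and 111 counts at 44 °C, at least 77.4-fold higher against a floor of 3 counts over the control group. Gml, a GPI-anchored protein gene, had 0 counts against 36 and 50, at least 32.5-fold higher. Misp had 3 control counts and 44 and 54 at 44 °C, a ratio of 37.0 (95% exact interval 12.3 to 182.0, counting error only). Unc45b, a myosin co-chaperone gene of muscle, had 3 control counts and 46 and 47 at 44 °C, a ratio of 35.1 (11.6 to 173.0). Septin7 also passed this rule, with 136 and 0 counts at 44 °C, but its reads are listed under an older symbol too, and with both rows summed it fell by 0.32.

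Falls reached into the most abundant transcripts of the fibroblast. Actg1 encodes cytoplasmic gamma-actin (chromosome 11, 120345687 to 120348495). It was at 2784 and 2707 CPM in the control and at 683.3 and 714.8 CPM at 44 °C, a fall of 1.97 on the log2 scale (SE 0.0472, adjusted p = 6.62e-13). Actb, cytoplasmic beta-actin, went from 3606 and 3541 CPM to 1662 and 1649 CPM, and fell by 1.11. Of the 20 genes with the highest control TPM, these were the most changed, followed by Vim (vimentin), S100a6, Lgals1 and Ppia, which fell by 0.84, 0.64, 0.50 and 0.40.

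The list of actin and actin-binding genes fell as a whole: 18 of 18 tested genes were called lower, with a median of -1.02, against 35.7% of all tested genes lower. Myl9, the regulatory light chain of myosin, went from 60.5 and 63.2 CPM to 12.3 and 12.6 CPM, a fall of 2.32 (SE 0.0606). Cnn2 (calponin 2) fell by 1.61, Tagln (transgelin) by 1.44, Acta2 (smooth muscle actin) by 1.40, Tpm1 (tropomyosin 1) by 1.25 and Flna (filamin A) by 0.95. The smallest falls were those of Vcl (vinculin) and Filip1l, by 0.30 and 0.11. Together the list made up 1.51% of TPM in both control libraries and 0.696% and 0.689% at 44 °C. At 42 °C for 8 h the levels were different: all 18 genes were lower at 44 °C than at 42 °C when compared directly, against 37.9% of all tested genes. Actin genes are close copies of each other, so that the split of reads among Acta1, Acta2, Actb, Actg1 and Actg2 depends on the authors' counting.

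Promoters of this list are shown because they hold the site of SRF. A CArG box lay within 250 bases before to 50 bases after the start in 6 of the 15 actin-list genes with a RefSeq promoter (40.0%), and in 167 of 10150 tested genes (1.65%) and 1.63% of all 32851 promoters. The list holds known SRF targets, so that this share describes the list and is no test. Among genes that fell at least 2-fold the share was 3.49%, and among those that rose at least 2-fold 2.78%. Below are stretches upstream of the start of the 4 genes of the list that hold the box and fell at least 2-fold, 5′ to 3′ on the gene's strand (GRCm38.p6, from RefSeq), with the CArG box in capitals.
Myl9, plus strand, chr2:156775273-156775342: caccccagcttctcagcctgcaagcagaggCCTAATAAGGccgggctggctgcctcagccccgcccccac
Actg1, minus strand, chr11:120348546-120348615: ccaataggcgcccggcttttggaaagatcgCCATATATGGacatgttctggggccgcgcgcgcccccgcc
Cnn2, plus strand, chr10:79988514-79988583: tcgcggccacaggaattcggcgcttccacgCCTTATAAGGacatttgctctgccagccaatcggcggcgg
Acta1, minus strand, chr8:123894809-123894878: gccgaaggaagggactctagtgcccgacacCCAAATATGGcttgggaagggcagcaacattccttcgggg
The boxes begin 161, 90, 56 and 73 bases before the start in the order shown.

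Targets of YAP, the coactivator that also responds to cytoskeletal tension, fell in 8 of 11 tested genes, with 1 higher and a median of -0.37. Cyr61, which encodes the matricellular protein CCN1, went from 223.8 and 199.2 CPM to 36.6 and 41.0 CPM, a fall of 2.45 (SE 0.0634, adjusted p = 1.36e-12). Ctgf, which encodes CCN2, fell by 1.58, Axl by 0.69 and Amotl2 by 0.53. Lats2, a kinase that restrains YAP, rose by 0.21, and Amotl1 was not called (log2 fold change 0.05, adjusted p = 0.312).

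The other large falls had varied roles. Rhoj, which encodes a small GTPase (chromosome 12, 75308313 to 75401455), went from 24.4 and 23.4 CPM to 3.43 and 2.95 CPM, a fall of 2.90 (SE 0.0890). Gjb2, the gap junction protein connexin 26, went from 133.4 and 110.7 CPM to 15.7 and 20.9 CPM, while 42 °C for 8 h had 229.2 and 201.8 CPM. Fstl1, a secreted glycoprotein of fibroblasts, went from 1426 and 1412 CPM to 353.4 and 344.2 CPM. Both subunits of propionyl-CoA carboxylase, Pcca and Pccb, fell, by 2.17 and 1.96. Surface and secreted proteins made up much of the rest: Adgrl3, Itga11, S1pr3, Robo2, Igfbp5, Lrrc17, Ndnf, Cxcl5 and Mamdc2 fell by log2 values of 1.92 to 2.44. A pair of these 25 falls were listed under an older symbol as well. Ccn4 fell by 2.93 as its row stands and by 0.28 (adjusted p = 3.1e-05) with its rows summed, and Fbh1 fell by 2.18 as it stands but was at 0.0783 (adjusted p = 0.144) when summed.

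Cholesterol synthesis fell almost throughout. The pathway makes sterols from acetyl-CoA and is switched on by SREBP2 (Srebf2) when sterols are low. Of 28 tested genes of sterol and fatty acid synthesis 24 fell and none rose, with a median of -0.69, and the list went from 0.511% and 0.522% of TPM to 0.329% and 0.310%. Nsdhl, which removes a C4 methyl group of sterols (chromosome X, 72918521 to 72958528), went from 65.2 and 67.2 CPM to 10.41 and 10.43 CPM, a fall of 2.67 (SE 0.0599, adjusted p = 4.18e-13). Enzymes of the mevalonate part fell as well: Mvk by 1.65, Fdps by 1.46 and Hmgcs1 by 1.16. Srebf2 itself fell by 0.59. The 4 genes not called were Ebp, Acly, Fasn and Srebf1, at log2 fold changes of 0.06, -0.03, -0.08 and -0.08. On log2(TPM + 1) with limma, 1 gene of the list was called higher.

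Extracellular matrix genes fell in the main. Of 61 tested, 39 fell and 11 rose, with a median of -0.42. The abundant fibrillar collagen genes Col1a1, Col1a2 and Col3a1 fell by 0.42, 0.45 and 0.47. Fbn1 (fibrillin 1) went from 1055 and 1032 CPM to 515.0 and 442.5 CPM, and Lox (lysyl oxidase, which crosslinks collagen) from 1827 and 1797 CPM to 846.5 and 759.8 CPM. They fell by 1.12 and 1.17. Eln (elastin) fell by 2.11 from 2.32 and 3.09 CPM. The 5 largest rises in this list lay at low levels: Col9a3, Col11a2 and Col20a1 by 2.73, 2.66 and 1.83, and the collagenase Mmp13 and stromelysin Mmp10 by 2.69 and 2.43, Mmp13 from 0.322 and 0.298 CPM to 2.44 and 1.59 CPM. Basement membrane collagen Col4a1 rose by 0.39, from 718.3 and 730.5 CPM, and its head-to-head neighbour Col4a2 fell by 0.45.

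Wnt pathway genes fell in 11 of 13 tested rows, with none higher and a median of -0.58. Axin2, the feedback inhibitor and common readout of the pathway, went from 18.9 and 20 CPM to 6.99 and 7.62 CPM, a fall of 1.41 (SE 0.0917, adjusted p = 7.34e-09). The receptor Fzd1 fell by 1.32 and the inhibitor Nkd2 by 1.23. Ccn4 and Wisp1 of this list are 1 gene under 2 symbols. Among TGF-beta and BMP genes 9 of 15 fell and 4 rose, with Id4 higher by 2.93 from 0.276 and 0.0814 CPM. With the joint fit of 16 libraries the 4 rises became 1, and without control replicate 2 they became 2. In the Hedgehog list Hhip, the inhibitor that binds the ligand, fell by 2.29, and 4 of 7 genes fell in all. Hey2 of the Notch list rose by 1.67. In that list 3 of 8 genes rose, a share near the 35.4% of all tested genes, and 1 fell. Of all tested genes 35.7% fell.

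**Figure D4:**
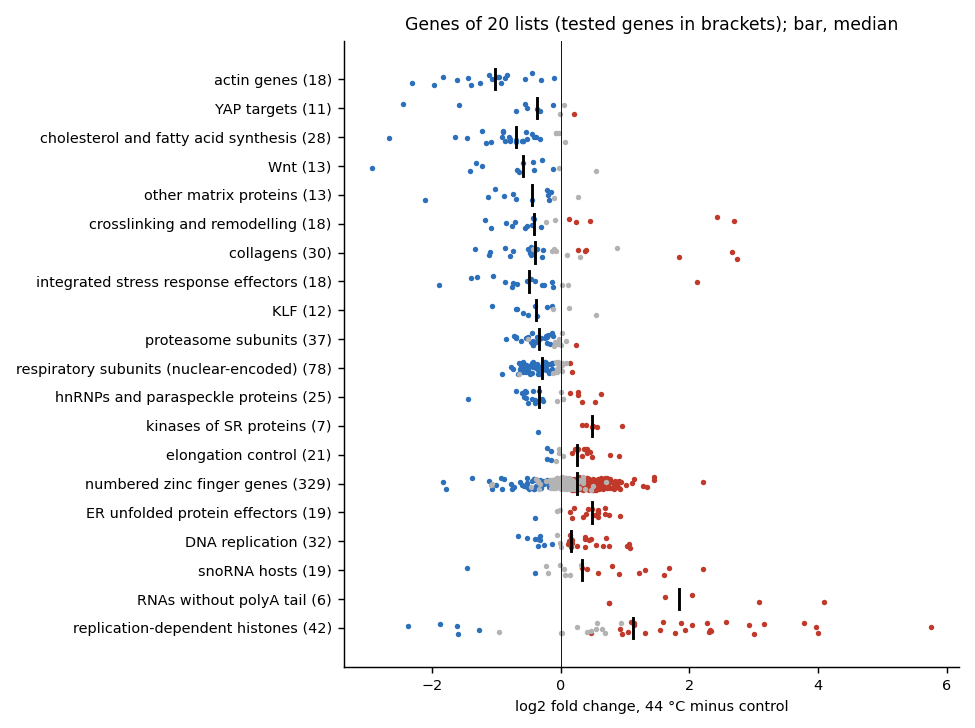
Log2 fold change at 44 °C for the tested genes of 20 lists, 1 point per gene (red called higher, blue called lower, grey not called), with a bar at the median. Actin genes and sterol synthesis lie left of 0, and histones and RNAs without a polyA tail lie mostly right of it.

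Immediate early transcription factors, which many stresses raise within minutes, showed no common direction. Within the EGR, NR4A and SRF group the receptors rose and the others fell. Nr4a3 went from 3.79 and 3.77 CPM to 14.7 and 15.6 CPM, a rise of 2.00 (SE 0.109), and Nr4a1 and Nr4a2 rose by 0.65 and 0.70. Egr1, Egr2 and Egr3 fell by 0.82, 1.79 and 1.80, Egr1 from 245.3 and 237.9 CPM to 131.8 and 141.4 CPM, and Srf itself fell by 0.53. Among AP-1 genes 2 of 9 rose (Fos by 0.27 and Atf3 by 0.97; 1 without control replicate 1) and 3 fell, with Jun lower by 0.46. KLF genes fell in 9 of 12 and rose in none, led by Klf2, by 1.07. Mxd1, a MAX partner that opposes MYC, rose by 1.67. Of the MAP kinase phosphatases 4 of 11 rose, led by Dusp4 with 1.53, and 3 fell, with Dusp8 lower by 0.68. Among all tested genes 35.4% rose and 35.7% fell.

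Stress pathways other than chaperones were counted next, beside 35.4% higher and 35.7% lower of all tested genes. Effectors of the unfolded protein response of the endoplasmic reticulum, which include chaperones, folding enzymes and degradation factors of that compartment, rose in 16 of 19 tested genes with a median of 0.49. Hspa5, Hsp90b1, Dnajb9 and Dnajc3 are also in the chaperone list. Hspa5 (BiP, the main chaperone of that compartment) went from 1356 and 1286 CPM to 2214 and 2236 CPM, a rise of 0.75. Ern1, which encodes the sensor IRE1-alpha, rose by 1.63, from 23.7 and 22.8 CPM to 69.9 and 74.5 CPM, and Creb3l1 fell by 0.94. Effectors of the integrated stress response, among them amino acid and tRNA charging genes driven by ATF4, fell in 15 of 18, with a median of -0.49. Slc7a11, the cystine importer, which is also in the NRF2 list, fell by 1.89, Stc2 by 1.40, Vldlr by 1.31 and Shmt2 by 1.05. Gdf15 was the member called higher, by 2.12, from 0.299 and 0.0271 CPM to 0.685 and 0.840 CPM. In 7 refits, among them both limma fits on TPM and the replicate block, 2 effectors were called higher.

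NRF2 targets rose in 7 and fell in 8 of 18 tested genes, against 35.4% higher and 35.7% lower among all tested genes. Gclc, the catalytic subunit that starts glutathione synthesis, rose by 1.33, and Nqo1 fell by 0.56. Targets of p53 rose in 7 of 19, a share near the 35.4% of all tested genes, and fell in 4, from Eda2r with 1.09 to Plk2 with -0.68. Gadd45b rose by 0.90, while Gadd45a and Gadd45g fell by 0.38 and 0.51. Heat shock factors moved little: Hsf1 rose by 0.50, Hsf2 by 0.41, and Hsf4 fell by 0.24, a call lost with DESeq2, with both TPM fits and without either 44 °C library or control replicate 2. In the BCL2 family the proapoptotic Bcl2l11 (BIM) rose by 0.93, while Bcl2 and Bcl2l1 were not called, at -0.08 and 0.06. With limma on TPM Bcl2l1 was called higher, by 0.14 in both fits. Proapoptotic members rose in 6 of 10 and fell in 2. Anti-apoptotic members rose in 2 of 4 and fell in none.

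Protein disposal genes were counted by group, beside 35.4% higher and 35.7% lower of all tested genes. Proteasome subunits fell in 27 of 37 and rose in 1, with a median of -0.33 and Psmd8 lowest at -0.85. None of the 4 ubiquitin genes was called higher: Ubb went from 889.0 and 912.2 CPM to 763.4 and 804.4 CPM and fell by 0.20, and Rps27a was at -0.07 and not called. Zfand2a (AIRAP), a proteasome adaptor that stress induces, rose by 0.97 and the autophagy receptor Sqstm1 by 0.84. Autophagy genes rose in 13 of 27 and fell in 5, with Atg14 and Map1lc3b higher by 0.96 and 0.86 and Wipi1 lower by 1.03. With DESeq2, with limma on TPM and without 44 °C replicate 1, 3 autophagy genes fell.

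Nuclear-encoded respiratory subunits fell in 58 of 78 and rose in 2 (none in the joint fit, without 44 °C replicate 2 or without control replicate 1), with a median of -0.30. No row of the mitochondrial genome was analysed here. Cytosolic ribosomal protein genes fell in 38 of 78 and rose in 4 (8 with limma on TPM, 2 in the joint fit and without 44 °C replicate 2), with a median of -0.12, and their share of TPM was 12.2% and 12.5% in the control and 11.9% and 12.2% at 44 °C. Ribosome assembly genes fell in 5 of 29 and rose in 9, with a median of 0.06, against 35.7% lower and 35.4% higher among all tested genes. Glycolytic enzymes fell in 11 of 18. Hypoxia genes rose in 5 of 11 and fell in 3, with a median of 0.12. P4ha1, a collagen prolyl hydroxylase, rose most, by 1.23, from 321.7 and 329.4 CPM to 770.9 and 750.4 CPM. Car9 fell most, by 1.21. The cold-inducible RNA-binding protein gene Rbm3 went from 485.0 and 454.3 CPM to 145.5 and 173.1 CPM, a fall of 1.56 (SE 0.0645). Cirbp, its relative, was at -0.15 and not called (adjusted p = 0.104).

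Groups of RNA processing genes were counted separately, with no test between them. SR splicing factors rose in 5 of 12 and fell in 4, with a median of 0.01, against 35.4% higher and 35.7% lower among all tested genes. Kinases that phosphorylate them rose in 6 of 7, Clk3 most with 0.95, from 40.7 and 38.4 CPM to 73.8 and 78.5 CPM. Genes for hnRNPs and paraspeckle proteins fell in 15 of 25 and rose in 6, and Hnrnpd (AUF1, which binds AU-rich mRNA) fell by 1.45, from 218.3 and 222.8 CPM to 79.3 and 82.6 CPM. Regulators of elongation rose in 13 of 21 and fell in 4 (1 without control replicate 2). Ccnt1 (cyclin T1 of P-TEFb) rose by 0.91, while Cdk9, the gene of its partner kinase, fell by 0.21. Ccnk rose by 0.76. Of cleavage and polyadenylation genes 11 of 21 rose and 5 fell, and Xrn2, the exonuclease that ends transcription, fell by 0.75, from 156.3 and 152.6 CPM to 93.1 and 90.7 CPM. Zinc finger genes with a Zfp number rose in 180 of 329 and fell in 41, with a median of 0.25, against 35.4% of all tested genes higher.

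RNAs without a polyA tail were all higher. Rmrp and Rpph1, the RNA parts of RNase MRP and RNase P, went from 0.0459 and 0.136 CPM to 1.40 and 1.68 CPM, and from 0.322 and 0.597 CPM to 3.26 and 4.37 CPM. Rn7sk, which holds P-TEFb inactive, rose by 2.04. All 6 tested RNAs of this kind rose, with a median of 1.83, but only 3 with DESeq2. Rn45s, the ribosomal RNA precursor, went from 225.0 and 120.7 CPM to 2255 and 2302 CPM, and stood at 3735 and 3814 CPM at 42 °C for 8 h. The libraries were polyA-selected, and a difference in that selection was not tested. Replication-dependent histone genes, whose mRNAs normally end in a stem loop and carry no tail, rose in 26 of 42 tested and fell in 5. With DESeq2 17 rose. Among all tested genes 35.4% rose. The list has 68 rows, and the others had too few counts to be tested. The median was 1.12, but 0.812 without the filter and 0.917 without 44 °C replicate 2. Hist1h2bp rose by 5.76 from 0 and 0.109 CPM, while Hist1h2ap went from 63.9 and 46.6 CPM to 10.5 and 11.0 CPM. The summed TPM share of the list went down, from 0.098% and 0.0908% to 0.0551% and 0.0575%. Histone genes are near-identical copies, and the division of reads among them is uncertain.

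Hosts of small nucleolar RNAs rose in 10 of 19 tested and fell in 2, with a median of 0.32; Snhg4 and Snhg10 rose by 1.68 and 1.61. The nuclear RNA Malat1 rose by 0.58 and Neat1, the scaffold of paraspeckles, fell by 0.50, although for Neat1 the 44 °C libraries differed, at 508.8 and 717.5 CPM against 898.0 and 832.5 CPM. H19 fell by 1.55. By RefSeq biotype, 28.1% of 121 long noncoding RNA genes rose at least 2-fold and 4.13% fell, against 5.78% and 4.88% of 12579 protein-coding genes. Their median control levels were 2.81 and 25.7 TPM.

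In the cell cycle, DNA replication genes rose in 20 of 32 and fell in 9, with a median of 0.16, and 13 rose with the joint fit of 16 libraries. Orc1 and Mcm10, which act at replication origins, rose by 1.07 each, Mcm10 from 61.4 and 61.8 CPM to 129.0 and 128.8 CPM. Mitotic genes fell in 11 of 30, a share near the 35.7% of all tested genes, and rose in 8, and Ccnb2 (cyclin B2) went from 122.7 and 125.9 CPM to 49.6 and 44.9 CPM, a fall of 1.39. Among tubulins Tubb2b fell by 1.12, with 9 of 16 lower and 6 higher.

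Inflammatory and metal-responsive genes follow. Chemokine and cytokine genes rose in 6 of 17 and fell in 7, with a median of -0.01. In the whole inflammatory list 16 of 39 rose and 15 fell. Its 2 largest falls were those of Cxcl5 and Cxcl1, chemokines that draw neutrophils, by 1.99 and 1.16. Cxcl5 went from 162.0 and 158.3 CPM to 42.0 and 38.4 CPM. Il6 was higher by 2.35 from 0.0689 and 0.0271 CPM, a call lost without 44 °C replicate 1 (1.74, adjusted p = 0.112) and without control replicate 2 (1.90, adjusted p = 0.0518). Socs7 rose by 1.09. All 4 tested genes of the metallothionein and zinc export list rose. Mt2 led with 1.04, from 68.2 and 73.9 CPM to 139.1 and 151.8 CPM. Mtf1, which encodes a metal-responsive transcription factor, is in this list too and rose by 0.77. Of interferon-stimulated genes 8 of 17 rose and 5 fell (3 with limma on TPM), and of clock genes 9 of 18 rose and 5 fell. Among all tested genes 35.4% rose and 35.7% fell. In the osmotic list Slc5a3 went from 65.2 and 71.0 CPM to 262.5 and 221.7 CPM and Nfat5, its transcription factor, rose by 0.63, while Sgk1 fell by 0.94.

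Few of these promoters held a heat shock element. As 3 adjoining units of alternating direction, GAA or TTC with 2 free bases between them, read on both strands, it was found in 0.552% of 10150 tested genes with a promoter, in 0.71% of 563 genes that rose at least 2-fold outside the chaperones, in 0.436% of 459 genes that fell at least 2-fold and in none of the 14 among the 25 largest rises that have a promoter entry. In the chaperone list 3 of 12 genes that rose at least 2-fold held it, and Hspd1 and Hspe1 among them share the same stretch. The shorter 2-unit form (GAANNTTC or TTCNNGAA), which the 3-unit form contains, was in 13.7% of tested genes and in 14.2% of the same 563. Among the 459 genes that fell at least 2-fold it was in 14.4%. Of the 12 chaperone-list genes 7 held it (58.3%). The share over all 32851 promoters was 0.603% for 3 units and 15.1% for 2. The AP-1 site (TGACTCA or TGAGTCA) was in 6.75% of the 563, in 6.32% of the 459 and in 4.65% of tested genes. For the palindrome TGACGTCA (cAMP response element) these shares were 2.66%, 1.74% and 3.62%. For comparison, an element in a chaperone promoter is set beside one of the 4 outside the list, with the element in capitals; both were chosen after their values were seen.
Hspe1 (HSP10), plus strand, chr1:55088029-55088106: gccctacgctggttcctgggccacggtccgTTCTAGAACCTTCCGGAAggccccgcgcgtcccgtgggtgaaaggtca
Creb3l3, minus strand, chr10:81098873-81098941: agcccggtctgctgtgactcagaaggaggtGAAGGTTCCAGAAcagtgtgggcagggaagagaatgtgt
Hspe1 shares this stretch with Hspd1 (HSP60), which is read the other way, and the genes rose by 2.04 and 1.44. Creb3l3 rose by 2.31.

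Against 42 °C for 8 h, the longer and milder heat, 75.1% of genes differed at 44 °C when compared directly. Of the 776 genes that rose at least 2-fold against control 610 were higher at 44 °C than at 42 °C and 42 were lower, and of the 622 that fell 464 were lower and 21 higher. Both sets were chosen by their change at 44 °C, which favours these directions. Of all tested genes 37.2% were higher and 37.9% lower. Rmrp, Rn45s, Rpph1 and Rn7sk were the 4 of the 25 largest rises that stood higher at 42 °C. For Fst the groups were close, at 11.8 and 12.8 CPM at 44 °C against 9.87 and 10.2 CPM at 42 °C, a difference of 0.29 (SE 0.0934, adjusted p = 0.0112). Temperature and time differ together here, so that they cannot be told apart.

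KCl and H2O2 at 2 h were set against their own control, and the difference between the effects was tested in a joint fit of 16 RNA libraries (13597 genes). The effect of 44 °C differed from that of KCl for 62.0% of genes and from that of H2O2 for 58.0%. Of the 776 genes that rose at least 2-fold, 343 (44.2%) also did so under H2O2, which is 22.6% of the genes raised by H2O2 (11.2% of those tested), and 216 (27.8%) under KCl, which is 22.3% of the genes raised by KCl (7.13% of those tested). Of the 622 genes that fell, 13 (2.09%) also fell 2-fold under H2O2, or 4.1% of its falls, and 14 (2.25%) under KCl, or 1.85% of its falls. H2O2 and KCl lowered 2.33% and 5.57% of tested genes by that much. The joint test called 536 of the 622 falls further down at 44 °C than under H2O2, and 525 further down than under KCl, where the choice of genes by their fall at 44 °C favours that direction. Of all tested genes 33.7% and 34.4% were lower in these tests.

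**Figure D5:**
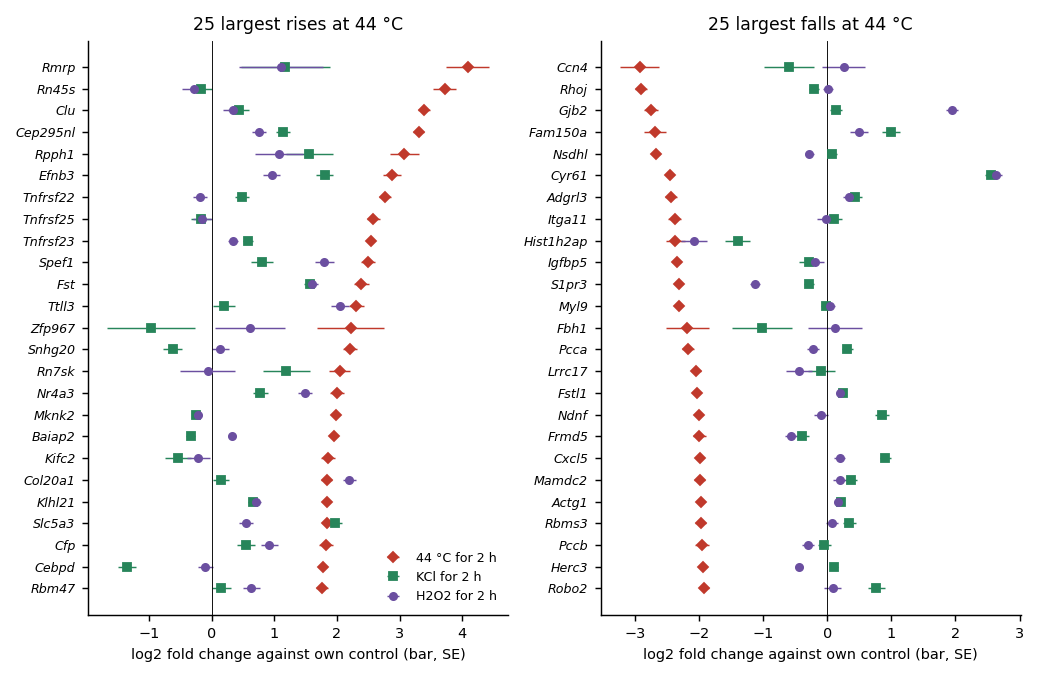
Log2 fold change against the own control, with its SE as a bar, at 44 °C (red diamonds), KCl (green squares) and H2O2 (purple circles), each at 2 h, for the 25 largest rises (left) and falls (right) at 44 °C. Among the falls, 11 of 25 genes were called the other way under KCl and 6 under H2O2, and for Cyr61 those points lie at 2.55 and 2.64.

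Single genes are compared next. Cyr61 fell by 2.45 at 44 °C and rose by 2.55 under KCl and by 2.64 under H2O2, and Gjb2 fell by 2.74 at 44 °C and rose by 1.95 under H2O2. Mknk2 was at -0.26 under KCl and -0.21 under H2O2, against its rise of 1.99 at 44 °C. Slc5a3 rose as much under KCl (1.97) as at 44 °C (1.83), a difference of -0.18 that was not called (adjusted p = 0.354). Of the 25 largest rises 23 were higher at 44 °C than under KCl and 22 than under H2O2 by the test of the difference, and of the 25 largest falls 24 were lower than under each. These genes were chosen for their change at 44 °C, which favours such counts, and nothing is read from them. Of all tested genes 27.6% and 24.3% were higher at 44 °C than under KCl and H2O2. Actin genes had medians of 0.15 under KCl and 0.05 under H2O2, and 17 and 18 of the 18 were lower at 44 °C by the joint test, against 34.4% and 33.7% of all tested genes. Integrated stress response effectors had a median of 0.75 under H2O2, and 16 of 18 were lower at 44 °C. Numbered zinc finger genes had a median of -1.07 under KCl, and 256 of 329 were higher at 44 °C, against 27.6% of all tested genes.

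The authors also called transcription that runs from a gene into its neighbour. Of 6399 pairs of neighbouring genes, their deposited tables call 48 and 45 as read-in in the control libraries and 95 and 112 at 44 °C, with 38 pairs called in both 44 °C libraries and neither control and 2 the other way. Of the 37 downstream genes of those 38 pairs that were tested 25 rose, 6 at least 2-fold, and 5 fell, with a median of 0.27. Among all tested genes 35.4% rose, 6.09% at least 2-fold, and 35.7% fell. Spef1 (downstream of Cenpb), Zglp1, Col20a1 (downstream of Arfgap1), Cntf, Lrrc73 and Apoe (downstream of Tomm40) rose by 2.50, 2.41, 1.83, 1.30, 1.26 and 1.22. Apoe was at 1.72 and 2.44 CPM in the control and 3.78 and 5.88 CPM at 44 °C, and the authors' read-in estimate for it was 0.129 and 0.0792 in the control and 0.715 and 0.717 at 44 °C. For Spef1 that estimate was 1.42 and 2.69 in the control and 1.84 and 2.07 at 44 °C. The groups overlapped there and for Zglp1 (1.40 and 0.759 against 1.29 and 1.10). The estimate was lower at 44 °C for Col20a1 (2.95 and 2.07 against 1.84 and 1.93) and Cntf (1.27 and 1.15 against 0.779 and 0.930), and higher for Lrrc73 (0.0636 and 0.158 against 0.337 and 0.196). In 332 pairs the downstream gene rose at least 2-fold. Of these, 3 and 4 pairs were called as read-in in the control libraries and 12 and 17 at 44 °C. Over all 6399 pairs the calls were 48 and 45 in the control and 95 and 112 at 44 °C. Called in both 44 °C libraries and neither control were 6 of the 332 pairs, beside 38 of all 6399. Cfp, 1 of the 25 largest rises, was called as read-in from Elk1 in both 44 °C libraries and in control replicate 2. How far such reads add to its level was not tested.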

How the data were processed

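PolyA-selected RNA of NIH3T3 cells was compared between 2 libraries at 44 °C and 2 control libraries. The authors deposited expected counts and TPM per gene, made with RSEM, STAR and Bowtie on build mm10 per the submitters' processing notes, which give no roles or versions; the counting's strand setting is not given there either, so that antisense and overlapping genes cannot be told apart. The authors also deposited true or false read-in calls and a read-in ratio per pair of neighbouring genes, without its formula. In all, 12 columns whose names fit no sample's labels were left out.

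Expected counts, whole numbers as deposited, were tested with edgeR 4.0.16 in R 4.3.3 (TMM, filterByExpr, quasi-likelihood F test) over the 6 heat RNA libraries, and over 16 RNA libraries for differences from KCl and H2O2, with Benjamini-Hochberg adjustment over all genes tested. Alternatives used DESeq2 1.42.0 and limma 3.58.1 on log2(TPM + 1) or log2(TPM + 0.1), another normalization, no filter, a replicate block and each library left out. Scripts were tested on simulated data. CPM are counts scaled to library size after TMM. Of 20430 symbols 19885 were in RefSeq, and 99 genes had rows under more than 1 symbol, found after seeing the data.

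Members and gene lists were chosen with earlier results of these data known. Named genes were the 25 largest rises and falls among called genes with mean log2 CPM of at least 3 and libraries that do not overlap, outside the chaperones; of each list the 2 highest and 2 lowest members and every member of a list of 6 or fewer; the 6 most changed of the 20 most abundant; 5 genes with at most 3 control counts; and 6 read-in genes. Other genes named were chosen after their values were seen. No gene met the rule that chose promoters to print, a heat shock element in the promoter of a gene of the first group or of the ubiquitin list. The printed stretches were chosen after their values were seen. Some members of the lists are not reported here by name.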

Additional observations from a re-analysis of the deposited data

How the results depend on the processing

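Of the 50 largest changes, 48 kept their direction and call in every refit run; the exceptions were Fbh1 and Zfp967. With the requirement of a 2-fold change, the genes called higher and lower numbered 776 and 622 against control, 1268 and 647 against 42 °C, 1345 and 1388 for the difference from KCl, and 802 and 1513 for that from H2O2. Without that requirement the counts of these 4 comparisons stayed within 1.5 times of those first given in each other refit run, and DESeq2 called 3947 genes higher and 3939 lower at 44 °C against control. With 1 library left out those counts ranged from 4032 to 4226 and from 4154 to 4287. Replicate numbers did not pair the libraries (correlation of deviations 0.0313 between control and 44 °C, 0.11 between control and 42 °C and 0.0173 between 44 and 42 °C), and the replicate block called 4605 genes higher and 4648 lower. With rows of 1 gene summed, an alternative chosen after seeing the data, the sign turned for Fbh1 (0.0783) and Septin7 (-0.32). The log2 fold change of Septin7 ranged from 0.0 to 10.07 with 1 library left out, the former without 44 °C replicate 1. Cirbp turned to 0.15 with limma on log2(TPM + 1) and to 0.15 on log2(TPM + 0.1), with adjusted p = 0.0412 and 0.0393. The cause was not tested. With 2 libraries a group the spread is known only roughly, genes of few reads carry wide errors, and levels are relative to each library's total.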
